A study of Danio rerio with 9 samples.

Results

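Messages for the proteins of the cytosolic ribosome were followed in whole zebrafish embryos that had received mRNA for a hypoxia-inducible factor (HIF) alpha subunit. The ribosomal protein genes were taken by symbol. Each array probe was joined through its RefSeq identifier to a gene symbol, and symbols starting with rpl or rps and a number, with rplp and a number, or equal to rpsa were kept, without the rps6k kinases and symbols ending in l. This gave 77 genes of the 28550 genes and transcripts on the array, 45 of the large subunit and 32 of the small subunit, measured by 165 of 43603 probes. Of 83 symbols in the gene table that met the rule, 6 were matched by no probe, among them rpl17, rpl23, rpl36a, rps19bp1 and rps27.2. The rule also took in rpl22l1 and rpl7l1, which are named as like genes of rpl22 and rpl7.

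All embryos were of the Tuebingen strain and were injected with mRNA, so each group carries the injection itself. The controls received GFP mRNA, for a green fluorescent protein with no known role in the oxygen response. The other groups received Hif-1a or Hif-3a mRNA, for alpha subunits of the factor that switches on genes at low oxygen, and are called Hif-1α and Hif-3α here. Each group held 3 arrays, each hybridised with RNA of a pool of 60 whole embryos at 12 h after fertilization, from 3 independent injection experiments. The amount of mRNA injected and the share of embryo cells that took it up are not given in the sources used here. The study's title asks whether Hif-3 is a transcription activator with a response of its own, which the comparisons of each HIF group with the controls and with each other address. All 34 of 34 listed markers of embryo parts at this stage, such as tbxta, myod1 and sox19a, were measured.

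Ribosomes are assembled in the nucleolus from ribosomal RNAs and a large set of proteins, nearly all of them present once in each particle, and they make all other proteins of the cell. The messages of these proteins are among the most abundant in growing cells, and they share a pyrimidine-rich 5′ end through which the growth kinase mTOR sets how well they are translated. In mammalian cells low oxygen is known to hold back mTOR, in part through products of HIF target genes. The arrays measured only the amount of each message, not its translation. In a whole embryo, fewer cells of a type and less RNA per cell cannot be told apart.

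Levels are log2 processed signals relative to the 75th percentile of the array, so a difference of 1 is a doubling. Errors of differences are standard errors (SE) from limma's fit over all 9 arrays, n = 3 arrays in each group, and p-values carry Benjamini-Hochberg adjustment over the 19547 genes tested. Where the difference of a gene is set against that of its paralogue, the error does not come from limma. It is a plain SE from the arrays of both groups compared, without moderation. A gene is called higher or lower where its adjusted p lay below 0.05. All 165 probes of the 77 genes were well above background on all 9 arrays, and no spot was saturated. Overall brightness differed, with a 75th percentile of 770 to 826 in the controls, 503 to 614 with Hif-1α mRNA and 613 to 790 with Hif-3α mRNA. On Hif-3α replicate 1 the scanner software had marked 437 spots as outliers, and 3 to 24 on the others. Marked spots were left out, so rpl18, rpl7a, rplp2b, rps10, rps14, rps15, rps2, rps21 and rps27a have 2 values in that group. The arrays were scanned on 4 days. Only the third of these held all 3 groups, with control replicates 2 and 3, Hif-1α replicate 2 and Hif-3α replicates 2 and 3, while Hif-1α replicates 1 and 3 shared a day and a slide of their own.

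The ribosomal protein messages stayed close together on every array. The mean over the genes of a level minus the gene's own mean over the arrays was -0.03, -0.06 and 0.05 in the GFP controls, -0.02, -0.06 and 0.12 with Hif-1α mRNA and 0.05, -0.05 and 0.00 with Hif-3α mRNA. The 3 groups overlapped in this mean. That depended on the scaling, since the control and Hif-1α arrays did not overlap with 3 of the 5 other scalings. The control arrays lay at 0.01 to 0.05 and the Hif-1α arrays at -0.07 to 0.00 with quantile normalization, at 0.02 to 0.05 against -0.08 to -0.01 with normexp background correction and quantile normalization, and at 0.04 to 0.08 against -0.06 to 0.01 with the authors' processed values. Of 77 genes, 15 lay above their own mean on control replicate 2, 25 on Hif-1α replicate 2 and 20 on Hif-3α replicate 2, and 55, 65 and 43 did so on the arrays of the third experiment. The arrays of the second experiment were thus the low ones of each group. With the authors' processed values the means of the 3 experiments were -0.03, -0.01 and 0.04, so the low place of the second experiment depended on the scaling.

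**Figure D1:**
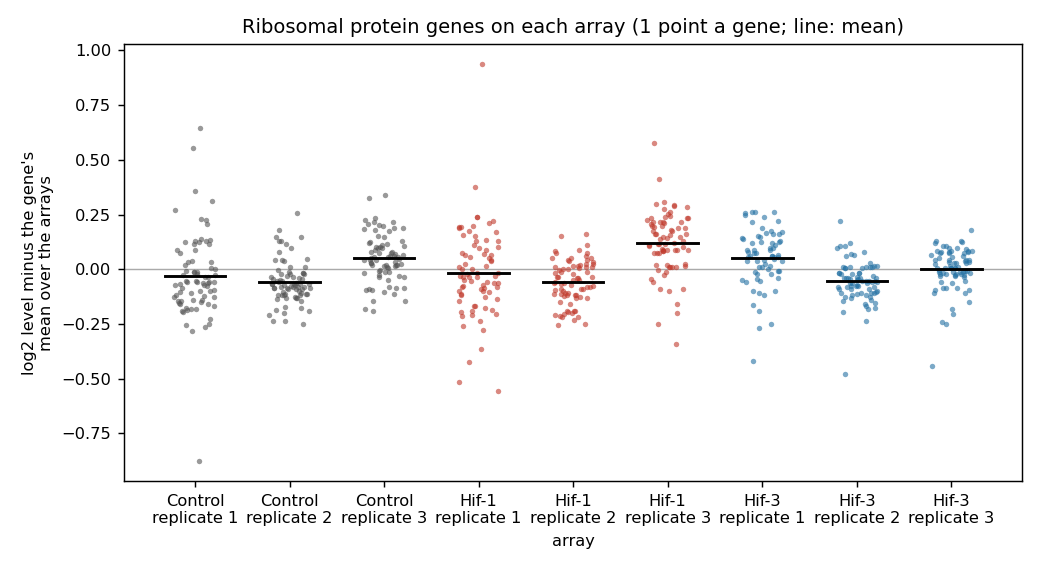
Level of each ribosomal protein gene on each of the 9 arrays (x axis), as the log2 level minus the mean of that gene over the arrays (y axis). Each point is 1 gene, and the black line is the mean over the genes, which runs from -0.06 to 0.12.

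The spread of these genes between replicates was small on the brightest probe of each gene. The residual standard deviation (SD) within groups had a median of 0.112 over the 77 genes, against 0.243 over all genes tested, and 74 of the 77 genes lay below the median of all genes. It was smallest for rpl8 (0.0563), rpl24 (0.0564) and rpl32 (0.0622), all proteins of the large subunit. It was largest for rps8b (0.371), rpl4 (0.269) and rpl7l1 (0.261). Other probes of rpl8 and rpl24 were less tight. In the fit over all probes the SE for Hif-1α against control was 0.11 on the brightest probe of rpl8 and of rpl24. On the other rpl8 probes it was 0.20 and 0.21, and on the other rpl24 probe 0.16. Across the 77 genes the SD fell with the signal of the probe, with a Spearman correlation of -0.48 over genes, which share the same 9 arrays. Their probes were bright, with a median of 160057 signal units for the genes. The median SE of a log2 difference for Hif-1α against control was 0.12 for these genes and 0.19 for all genes.

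Embryos with Hif-1α mRNA were compared with the GFP controls first. Of all genes tested, 9.51% were called, 5.73% higher and 3.77% lower, that is 1121 and 737 genes. Of the 77 ribosomal protein genes 0 were called higher and 1, rpl22l1, was called lower. At an unadjusted p under 0.05 there were 11 of these genes, 8 higher and 3 lower, or 14.3%, against 28.5% of all genes. The median log2 difference of the ribosomal protein genes was 0.03, with the middle 50% from -0.10 to 0.14. For all genes the median was -0.01, with the middle 50% from -0.29 to 0.30. Single differences ran from -0.52 to 0.99. The large subunit had a median of 0.03 and the small subunit 0.04. The 95% interval of the difference lay within -1 and 1 for 76 of the 77 genes, against 66.5% of all genes, and within -0.5 and 0.5 for 56 of them, against 20.0% of all genes. The arrays of both groups did not overlap for 18 genes that were higher and 7 that were lower, against 17.2% and 16.9% of all genes. With the replicate number as a block 4403 genes and 3 of the 77 were called, rpl22l1 and rpl5a lower and rps8b higher. With scan day as a block 4 genes were called and 0 of the 77, and within the third scan day 0 genes (2261 at an unadjusted p under 0.05) and 0 of the 77 (0 unadjusted).

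The sign of the median depended on how the arrays were scaled. It was -0.07 with the median of each array in place of the 75th percentile, -0.09 with quantile normalization and -0.11 with the authors' processed values, where all genes had medians of -0.12, -0.03 and -0.03. With background correction by normexp it was 0.24 with the 75th percentile, against -0.20 for all genes, and -0.09 with quantile normalization. Under normexp with the 75th percentile, control replicate 3 had a mean of -0.53 over the ribosomal protein genes, relative to their own means. The other control arrays had 0.14 and 0.15. The median SE over all genes was 0.34 in that setting, against 0.19 in the main fit. Across the scalings the median difference of the whole group therefore had no settled direction. By experiment the median difference was 0.03, 0.00 and 0.07.

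**Figure D2:**
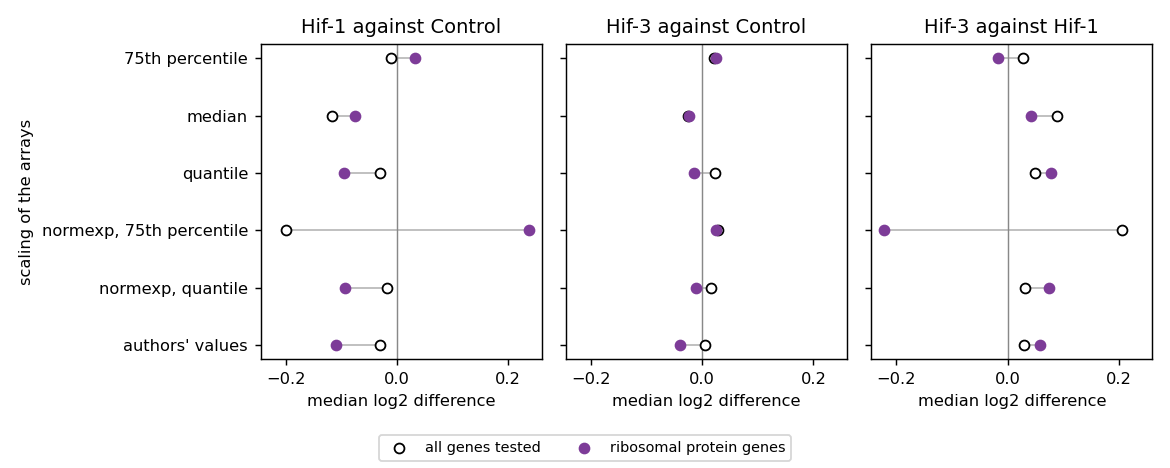
Median log2 difference of the ribosomal protein genes and of all genes tested (x axis) under each scaling of the arrays (y axis), 1 panel a comparison. For Hif-1α against control the median of the ribosomal protein genes runs from -0.11 with the authors' values to 0.24 with normexp and the 75th percentile.

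The gene called lower, rpl22l1, codes for a paralogue of the RNA-binding protein Rpl22. In zebrafish this pair is known for distinct roles in blood development. Its level was 6.54, 6.59 and 6.47 in the GFP controls, 5.91, 6.08 and 6.09 with Hif-1α mRNA and 6.56, 6.42 and 6.38 with Hif-3α mRNA. The 3 Hif-1α arrays lay below all other arrays, and the Hif-3α arrays overlapped the controls. The difference of Hif-1α from control was -0.51 ± 0.11, with a 95% interval of -0.77 to -0.25 and an adjusted p of 0.0317 by limma, or 0.703 of the control level. By experiment it was -0.63, -0.51 and -0.38, lower in 3 of 3. Hif-3α differed from Hif-1α by 0.42 ± 0.11 (adjusted p = 0.114). The gene has 1 probe.

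The difference of rpl22l1 kept its sign under all 23 alternative settings run, from -0.61 to -0.33, but passed the test in 10 of them. Of the 9 fits that each left out 1 array it passed in 1, the fit without Hif-3α replicate 1, and without any other array its adjusted p lay between 0.0539 and 0.103. With scan day as a block it was -0.45 (adjusted p = 0.459), and within the third scan day, on 2 control arrays and 1 Hif-1α array, -0.45 (adjusted p = 0.464). With the replicate number as a block its adjusted p was 0.0229.

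The parent gene rpl22 was at 7.47, 7.48 and 7.54 in the GFP controls, 7.34, 7.33 and 7.43 with Hif-1α mRNA and 7.55, 7.32 and 7.49 with Hif-3α mRNA. Hif-1α differed from control by -0.14 ± 0.11, with an interval of -0.39 to 0.12 (adjusted p = 0.451), and the arrays of these groups did not overlap. The difference of rpl22l1 exceeded that of rpl22 downward, by -0.37 ± 0.08. The exact permutation test over the arrays of the level of rpl22l1 minus that of rpl22 gave p = 0.1, the smallest that 3 against 3 arrays allow, and 0.188 after adjustment over 15 such tests, so it cannot pass at this size. The pair of rpl7l1 and rpl7 was read in the same way. For rpl7l1, named like rpl7, the difference was -0.37 ± 0.20 (adjusted p = 0.272) and for rpl7 0.14 ± 0.11 (adjusted p = 0.413). Without control replicate 1 that of rpl7l1 was -0.19. Both pairs set a dimmer probe against a brighter one. The mean signal was 57277 units for rpl22l1 and 119742 for rpl22, and 13614 for rpl7l1 and 216728 for rpl7. The dimmer rpl7 probes had Hif-1α differences of -0.03 and -0.19. The part of brightness in these contrasts was not tested.

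Among the pairs of near copies, rpl5a and rpl5b code for the protein that carries 5S ribosomal RNA into the large subunit. In mammals this particle, with Rpl11, also binds Mdm2 and so stabilises p53. The level of rpl5a was 6.72, 6.57 and 6.70 in the GFP controls, 6.30, 6.27 and 6.40 with Hif-1α mRNA and 6.54, 6.35 and 6.55 with Hif-3α mRNA. Every Hif-1α array lay below every control array, as did every Hif-3α array, though the Hif-3α and Hif-1α arrays overlapped. The difference for Hif-1α was -0.34 ± 0.11 (adjusted p = 0.0984) and for Hif-3α -0.18 ± 0.11 (adjusted p = 0.868). With the replicate number as a block, rpl5a passed for Hif-1α with an adjusted p of 0.0415. By limma rpl5a also passed with the median of each array (adjusted p = 0.0444) and with the mean of its probes (adjusted p = 0.0413). It passed in no other setting run. It was at -0.36 (adjusted p = 0.532) within the third scan day.

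The other copy, rpl5b, was at 7.92, 7.96 and 8.07 in the GFP controls, 7.99, 7.93 and 8.13 with Hif-1α mRNA and 8.15, 7.95 and 8.11 with Hif-3α mRNA, and its groups overlapped. Its difference for Hif-1α was 0.03 ± 0.12, with an interval of -0.23 to 0.30. That is the value of the brightest of 4 rpl5b probes, at 178249 signal units, and the other 3 had Hif-1α differences of -0.20, -0.30 and -0.33 at 63461, 54958 and 29522 units. The contrast of both copies thus sets probes of different brightness against each other, and the part of brightness in it was not tested. With the brightest probes, the difference of rpl5b lay above that of rpl5a by 0.37 ± 0.06 for Hif-1α and by 0.27 ± 0.06 for Hif-3α, without overlap of the arrays (exact permutation p = 0.1 each, 0.188 after adjustment). Of rpl11, the partner of both in the 5S particle, the level was 8.23, 8.04 and 8.18 in the GFP controls, 8.26, 8.04 and 8.16 with Hif-1α mRNA and 8.41, 7.99 and 8.07 with Hif-3α mRNA. Its differences were 0.00 for Hif-1α, with an interval of -0.32 to 0.33, and 0.00 for Hif-3α. Those are values of its brightest probe, at 195045 units. The other rpl11 probe, at 102101 units, had -0.21 for Hif-1α and -0.08 for Hif-3α.

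The small subunit gene rps8b was at -1.28, -0.64 and -0.59 in the GFP controls, 0.54, -0.24 and 0.18 with Hif-1α mRNA and -0.21, -0.88 and -0.50 with Hif-3α mRNA. Its probe was the dimmest of those that stood for a ribosomal protein gene, at a mean of 524 signal units. The Hif-1α arrays lay above the controls without overlap, and the difference was 0.99 ± 0.27, with an interval of 0.37 to 1.62 (adjusted p = 0.0573). By limma it passed with the replicate number as a block (adjusted p = 0.0470). With probes well above background on all 9 arrays it also passed (adjusted p = 0.0488), and in no other setting run. By experiment it was 1.82, 0.40 and 0.76, and within the third scan day 0.37 (adjusted p = 0.562). Its copy rps8a was at 7.91, 8.01 and 8.10 in the GFP controls, 8.57, 8.20 and 8.42 with Hif-1α mRNA and 8.36, 8.09 and 8.09 with Hif-3α mRNA. On its brighter probe the Hif-1α arrays were the higher ones, by 0.39 ± 0.14 (adjusted p = 0.116), while its second probe had a difference of 0.01. The rps8b difference lay above that of rps8a by 0.60 ± 0.21, which the exact permutation test of the pair could not call.

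**Figure D3:**
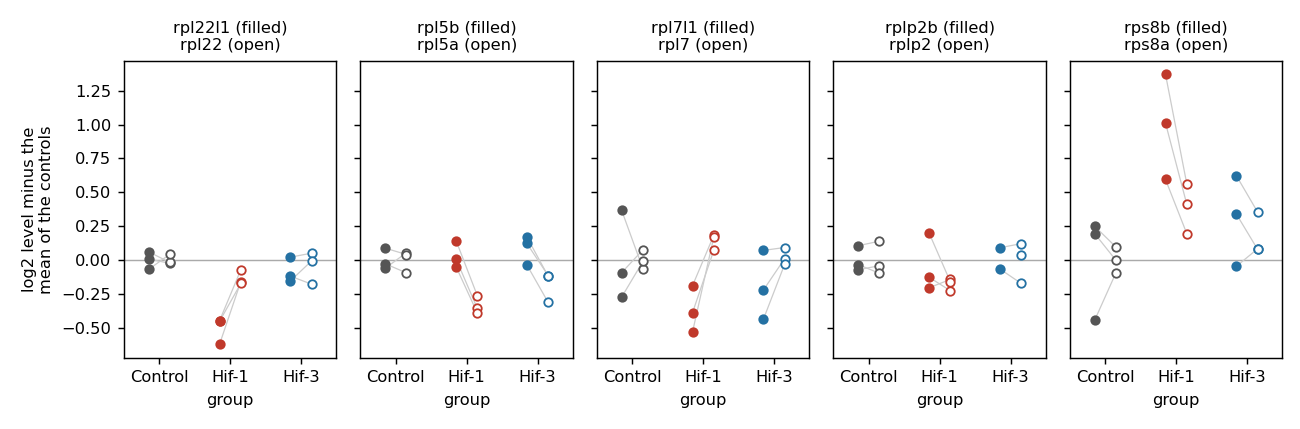
Levels of 5 pairs of related ribosomal protein genes by group (x axis), each as the log2 level minus the control mean of that gene (y axis), with 1 point an array. The filled points of rpl22l1 lie lower with Hif-1α by 0.51 on average, and the open points of rpl5a by 0.34. The filled points of rpl5b, of its brightest probe, lie at 0.03.

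Other genes of the large subunit lay in both directions, and none of those named next passed. The protein of rpl4 lines the exit tunnel of the growing chain, and its level was 6.82, 6.36 and 6.03 in the GFP controls, 5.66, 6.03 and 5.98 with Hif-1α mRNA and 6.20, 6.40 and 6.11 with Hif-3α mRNA. The difference for Hif-1α was -0.52 ± 0.21 (adjusted p = 0.149). On this brightest probe control replicate 1 was the high array and Hif-1α replicate 1 the low one. The lowest control and the highest Hif-1α array were nearly equal. Without control replicate 1 the difference of rpl4 was -0.31. The other rpl4 probe, at 42639 units, had 5.72, 6.43 and 6.24 in the GFP controls and 5.63, 6.10 and 5.84 with Hif-1α mRNA. There control replicate 1 was the lowest control and the groups overlapped. Its differences were -0.27 for Hif-1α and -0.44 for Hif-3α, against -0.17 for Hif-3α on the brightest probe. The protein of rpl3 reaches to the peptidyl transferase centre, and its difference was 0.29 ± 0.11 (adjusted p = 0.124), with 8.49, 8.50 and 8.56 on the control arrays and 8.79, 8.74 and 8.88 on the Hif-1α arrays. The protein of rpl8 lies near the same centre, and its level was 8.81, 8.77 and 8.74 in the GFP controls, 8.47, 8.61 and 8.64 with Hif-1α mRNA and 8.83, 8.83 and 8.85 with Hif-3α mRNA. On the brightest rpl8 probe the Hif-1α arrays were the lowest and the Hif-3α arrays the highest. Hif-1α differed from control by -0.20 ± 0.10 (adjusted p = 0.238) there. The other rpl8 probes had -0.45 and -0.46, and on these control replicate 1 lay above every Hif-3α array. That gene passed, lower by 0.45, with quantile normalization, by 0.42 with normexp and quantile normalization, and by 0.61 with the authors' processed values.

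The ribosomal stalk recruits elongation factors, and is made of rplp0 with dimers of the acidic proteins from rplp1 and rplp2. With Hif-1α the differences were -0.14 ± 0.14 for rplp0, -0.10 ± 0.12 for rplp1, -0.18 ± 0.12 for rplp2 and -0.04 ± 0.15 for rplp2b. The smallest adjusted p of these was 0.387. They are values of the brightest probe of each gene, and the other rplp0 probes had -0.16, -0.50 and -0.34. For rplp2 the level was 7.12, 7.06 and 7.30 in the GFP controls, 6.94, 7.02 and 7.003 with Hif-1α mRNA and 7.20, 6.99 and 7.28 with Hif-3α mRNA, with the Hif-1α arrays just below all control arrays. On the brightest rplp0 probe the level was 8.11, 7.85 and 8.07 in the GFP controls and 7.79, 7.73 and 8.10 with Hif-1α mRNA. With Hif-3α mRNA it was 8.12, 7.99 and 8.05, and the groups overlapped.

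In the small subunit the largest differences upward besides rps8a and rps8b were of rps14, rps2 and rps24. The human gene for Rps14 lies in the deletion behind a form of marrow failure, and the zebrafish gene was at 8.55, 8.48 and 8.66 on the control arrays and 8.95, 8.73 and 9.01 on the Hif-1α arrays, a difference of 0.33 ± 0.13 (adjusted p = 0.137). Its other 2 probes had differences of 0.23 and -0.16. The protein of rps2 lies near the entry of the message, and its gene was at 8.63, 8.68 and 8.76 and 9.03, 8.90 and 9.12 on the same arrays, with 0.33 ± 0.11 (adjusted p = 0.117). These are values of the brightest of 5 rps2 probes, and the other 4 had differences of 0.05, -0.15, -0.32 and -0.33. For rps24 the difference was 0.29 ± 0.12 (adjusted p = 0.147). On the brightest probe of each of these 3 genes the Hif-1α arrays lay above all control arrays, and none passed. Downward, rps9, whose protein helps to form the entry of the message channel, was at 7.11, 6.97 and 6.89 in the GFP controls, 6.28, 6.76 and 6.93 with Hif-1α mRNA and 6.85, 6.85 and 6.91 with Hif-3α mRNA. Its difference was -0.33 ± 0.17 (adjusted p = 0.239), and Hif-1α replicate 1 was the low array. Without that array it was -0.15.

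Genes with other known roles did not pass with Hif-1α. The protein of rps6 is the classical target of the S6 kinases below mTOR, and its difference was -0.21 ± 0.15 (adjusted p = 0.388), with 7.57, 7.68 and 7.80 on the control arrays and 7.21, 7.62 and 7.59 on the Hif-1α arrays. Without Hif-1α replicate 1, the low array, it was -0.08. These are values of the brightest rps6 probe, and the others had differences of -0.17, -0.42 and -0.49. The protein of rps3 lines the path of the message into the ribosome and takes part in DNA repair in mammals. Its gene had a difference of -0.23 ± 0.12 (adjusted p = 0.231) on the brightest probe and -0.27 on the other. For rpsa, whose protein was first described as a laminin receptor precursor, it was 0.08 ± 0.11, with an interval of -0.18 to 0.33, on the brightest probe. The other 3 rpsa probes had differences of -0.26, -0.48 and -0.25. For rps27.1 the difference was 0.00 ± 0.12. For rpl10, whose protein joins the large subunit late, it was -0.21 ± 0.13, for rpl10a 0.29 ± 0.13, for rpl13a -0.02 ± 0.13 and for rpl38, needed in mouse for the translation of Hox messages, 0.12 ± 0.11. Each of these is the value of the brightest probe. The others had -0.16, 0.00 and -0.08 for rpl10, -0.12 and 0.01 for rpl10a, -0.31 for rpl13a and 0.20 for rpl38. Some genes are mutated in human Diamond-Blackfan anaemia, a failure of red cell production. Their differences were 0.15 ± 0.11 for rps19, -0.20 ± 0.11 for rps26 and 0.00 ± 0.13 for rpl35a, beside that of rps24 above. The other rps19 probes had 0.15 and -0.19. The other rps24 probes had 0.13 and, at a mean of 74 signal units, 0.42.

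Embryos with Hif-3α mRNA were compared with the same controls. Of all genes tested 0.00512% were called, which is 1 gene, higher, and of the 77 ribosomal protein genes 0 were called by limma. At an unadjusted p under 0.05 there was 1 of them, against 6.07% of all genes. The median log2 difference was 0.02, with the middle 50% from -0.05 to 0.09, and all genes had a median of 0.02, with the middle 50% from -0.13 to 0.18. The 95% interval lay within -1 and 1 for 77 of 77 genes, against 78.5% of all genes, and within -0.5 and 0.5 for 69 of them, against 33.0% of all genes. Of these genes 9 lay higher and 5 lower without overlap of the arrays, against 7.01% and 4.33% of all genes.

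On the brightest probes the gene with the smallest p was rpl19, whose protein forms a bridge between the subunits. Its level was 5.91, 5.93 and 6.12 in the GFP controls, 5.98, 5.58 and 6.20 with Hif-1α mRNA and 5.36, 5.63 and 5.34 with Hif-3α mRNA. All 3 Hif-3α arrays lay below the controls, and the Hif-1α arrays were spread on both sides of them. The difference was -0.54 ± 0.18 (adjusted p = 0.624), with an interval of -0.95 to -0.14, which did not pass. By experiment it was -0.55, -0.30 and -0.78, lower in 3 of 3. Other differences downward were of rpl7l1 (-0.20 ± 0.20) and rps7 (-0.19 ± 0.13). Upward they were of rps8b (0.31 ± 0.27), rpl23a (0.21 ± 0.11), rps13 (0.19 ± 0.12) and rpl10a (0.18 ± 0.13), and the smallest adjusted p of all 77 genes was 0.624. These differences are of the brightest probe of each gene. The other rpl23a probe had -0.36, the other rps13 probe 0.09, and the other rpl10a probes -0.06 and 0.16. For rps28 the brightest probe had 0.15, and the dimmer one -0.75 ± 0.22 (adjusted p = 0.594 by limma over all probes).

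**Figure D4:**
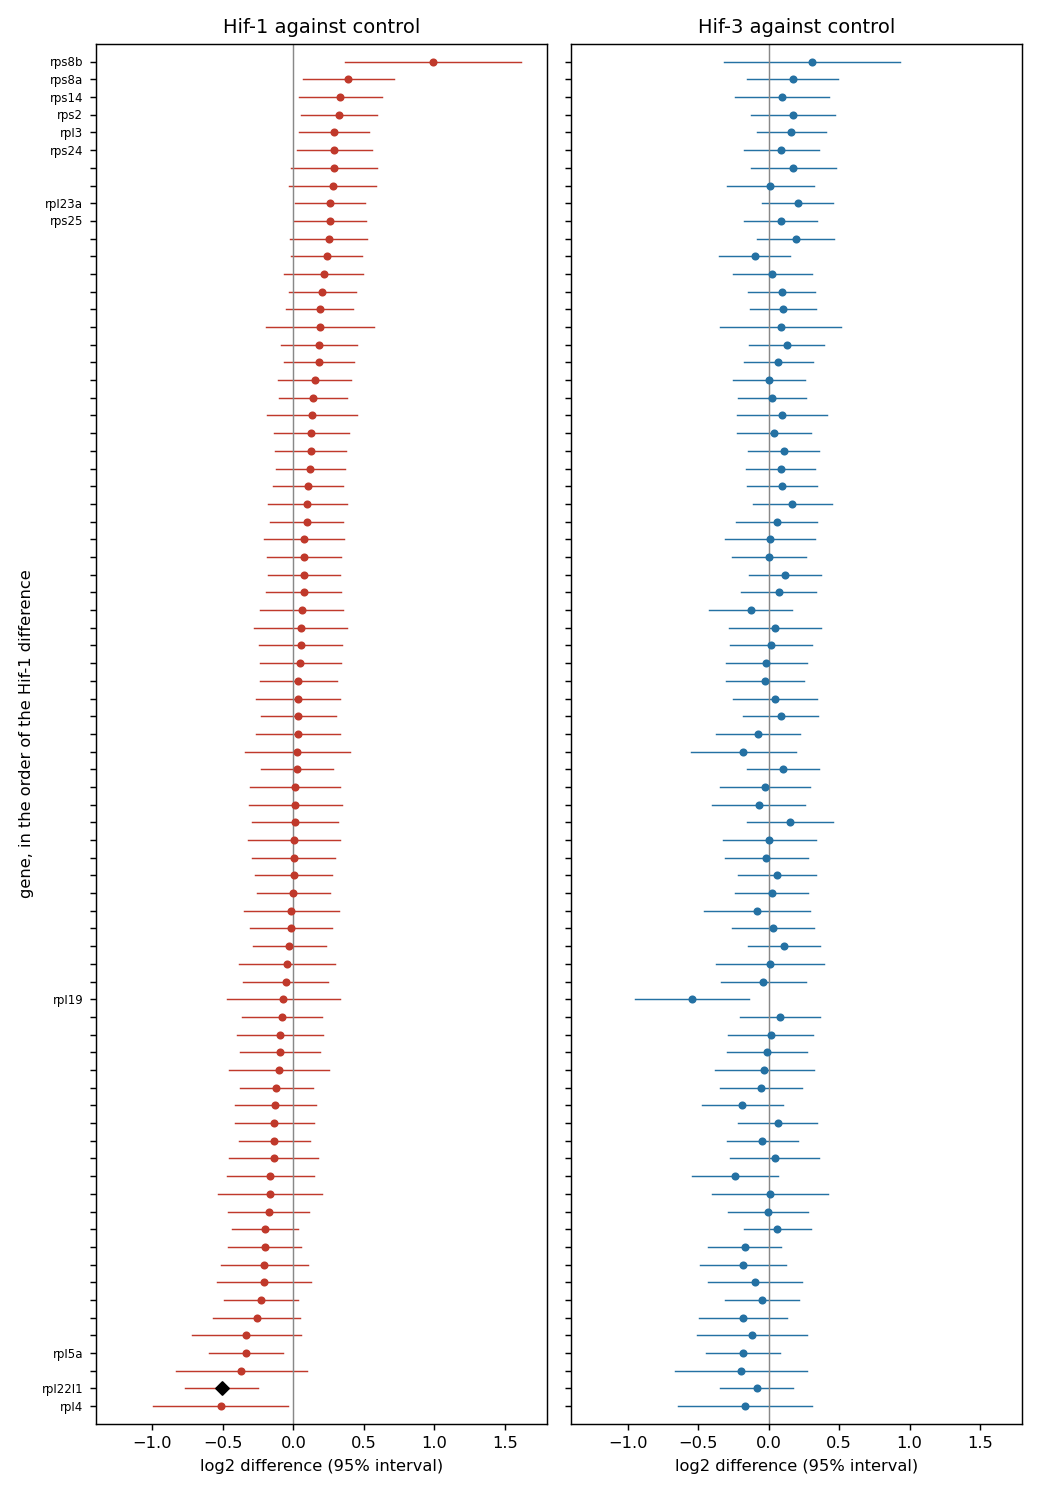
Log2 difference of each of the 77 ribosomal protein genes from the GFP controls (x axis, with 95% intervals) for Hif-1α (left) and Hif-3α (right), in the order of the Hif-1α difference (y axis). Names are given for genes with an unadjusted p under 0.05 in either comparison. The diamond marks rpl22l1, at -0.51 the gene that passed, and both panels share the control arrays.

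The HIF groups were then set against each other. Of all genes tested 0.926% were called, 0.189% higher and 0.737% lower with Hif-3α, and of the 77 ribosomal protein genes 0 were called by limma. At an unadjusted p under 0.05 there were 5 of them, 2 higher and 3 lower, against 19% of all genes. With the replicate number as a block 890 genes and 0 of the 77 were called, and with scan day as a block or within the third scan day 0 genes (1175 and 1267 unadjusted). The median was -0.02, against 0.03 for all genes, and with the scalings above it ran from -0.22 to 0.08. The 2 higher were rpl22l1 and rpl8, at 0.26 ± 0.10 (adjusted p = 0.222). The 3 lower were rps8b, at -0.69 ± 0.27 (adjusted p = 0.227), rpl19, at -0.47 ± 0.18 (adjusted p = 0.207), and rpl29, at -0.33 ± 0.11 (adjusted p = 0.170). The levels of rpl29 were 7.91, 7.88 and 7.92 in the GFP controls, 8.14, 8.03 and 8.25 with Hif-1α mRNA and 7.84, 7.87 and 7.71 with Hif-3α mRNA, with the Hif-1α arrays highest, the Hif-3α arrays lowest and no overlap between any of the groups. The interval of the difference lay within -0.5 and 0.5 for 64 of the 77 genes, against 22.9% of all genes. The arrays of both groups did not overlap for 5 genes that were higher with Hif-3α and 9 that were lower, 14 in all, against 15.5%, 11.4% and 26.9% of all genes. On the slide that held both Hif-1α replicate 2 and Hif-3α replicate 2, Hif-3α minus Hif-1α had a median of -0.02 over the 77 genes and was 0.33 for rpl22l1.

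Most ribosomal protein genes have several probes, and these did not give 1 value. Of 53 such genes, all probes had the same sign in 26 when Hif-1α was set against control, in 20 when Hif-3α was, and in 21 when the HIF groups were set against each other. For rpl3 the 4 probes, from the brightest to the dimmest, had Hif-1α differences of 0.29, -0.27, -0.48 and -0.44, at mean signals of 276152, 122081, 66911 and 25543. The brighter probes thus lay higher. Over the 165 probes the Spearman correlation of mean signal with the difference was 0.72 for Hif-1α against control and 0.54 for Hif-3α against control, which share the control arrays. The 83 probes at or above the median signal of 124841 had a median Hif-1α difference of 0.07, and the 82 below it -0.21. In 44 of the 53 genes the brightest probe lay above the dimmest for Hif-1α.

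The relation with signal depended on the scaling. The correlation for Hif-1α was 0.36 with quantile normalization and 0.26 with the authors' processed values. It was 0.79 with normexp and the 75th percentile. Since the brightest probe stood for a gene, this moves with the choice of probe. With the mean of the probes of a gene the median Hif-1α difference of the 77 genes was -0.05. Over all 31114 probes 8.48% were called for Hif-1α against control, and of the 165 probes of ribosomal protein genes 2 were, both lower. They were the probe of rpl22l1 and the dimmer probe of rpl5a, at -0.73 ± 0.17 (adjusted p = 0.0390 over all probes). The part of probe brightness in the differences of single genes was not tested.

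**Figure D5:**
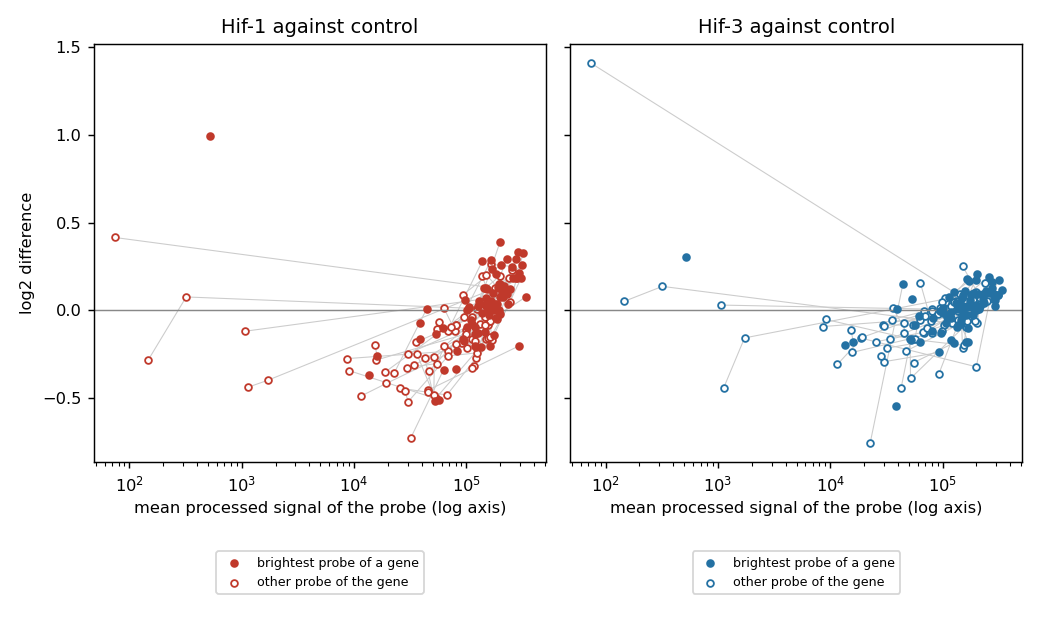
Mean processed signal of each of the 165 probes of ribosomal protein genes (x axis, log scale) against its log2 difference (y axis), for Hif-1α and for Hif-3α against control. The filled points are the brightest probe of each gene. With Hif-1α the median is 0.07 for the brighter probes and -0.21 for the dimmer ones.

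Genes that work with the ribosomal proteins were read from lists. Of the 8 measured genes for ubiquitin fusions and ribosome-bound proteins, 0 were called higher or lower with Hif-1α, and 1 had an unadjusted p under 0.05. Their median was 0.08. The small subunit protein of rps27a is made as a fusion with ubiquitin, and its difference with Hif-1α was -0.12 ± 0.11. Those of faua and faub, whose products carry a ubiquitin-like domain, were 0.16 ± 0.13 (adjusted p = 0.461) and 0.00 ± 0.14 (adjusted p = 1.000). For rack1, the scaffold on the head of the small subunit, it was -0.01 ± 0.12 (adjusted p = 0.959).

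Of 85 measured genes of ribosome biogenesis 5 were called lower and 0 higher with Hif-1α, with a median of -0.23 against -0.01 for all genes tested, of which 3.77% were called lower and 9.51% in either direction. At an unadjusted p under 0.05 by limma there were 24 of the 85, against 28.5% of all genes. The median was below 0 under each scaling run, from -0.34 with the array median to -0.05 with normexp and the 75th percentile. All genes had medians of -0.12 and -0.20 in these settings. With normexp and the 75th percentile the biogenesis median thus lay above that of all genes. The number called lower was 16 with the median of each array, 8 with normexp and quantile normalization, 3 with the authors' values, 2 with quantile normalization and 0 with normexp and the 75th percentile (0 unadjusted). Of all 19547 genes tested 1312, 855, 711, 719 and 0 were called lower in these settings. Normexp with the 75th percentile had a median SE over all genes of 0.34, against 0.19 in the main fit. The nucleolar gene nol10 was at 2.72, 2.45 and 2.77 in the GFP controls and 2.06, 2.10 and 1.87 with Hif-1α mRNA, without overlap, a difference of -0.64 ± 0.13 (adjusted p = 0.0248). For rrp12, which takes part in the export of the subunits, the difference was -0.54 ± 0.12 (adjusted p = 0.0354). For pwp2h, of the complex that processes the small subunit RNA, it was -0.60 ± 0.14 (adjusted p = 0.0356). With Hif-3α 0 of the 85 were called, 2 had an unadjusted p under 0.05, and the median was -0.02.

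Of 49 measured genes listed with the translation initiation factors, 1 was called higher and 2 lower with Hif-1α, against 5.73% and 3.77% of all genes. The listed genes had a median of -0.29. With the median of each array 1 was called higher and 10 lower, against 883 and 1312 of all 19547 genes. With normexp and the 75th percentile 0 were called (2 unadjusted), with a median of -0.09, against -0.20 for all genes. The gene called higher was eif4ebp3l, of the family that holds back the cap-binding protein when mTOR is low, at 4.65, 5.54 and 4.998 in the GFP controls and 6.28, 6.27 and 6.17 with Hif-1α mRNA. Its difference was 1.18 ± 0.21 (adjusted p = 0.0177), with the Hif-1α arrays above all control arrays. The genes called lower were eif2b5 at -0.76 ± 0.18 (adjusted p = 0.0377) and eif2s1b at -0.71 ± 0.18 (adjusted p = 0.0453), subunits of the exchange factor and of the factor that brings the initiator tRNA. Of 15 genes listed with the elongation factors, 1 was called lower and 0 higher, against 3.77% and 5.73% of all genes. It was abce1, at -0.53 ± 0.11 (adjusted p = 0.0274), which splits ribosomes after termination, a step outside elongation. With normexp and the 75th percentile 0 of the 15 were called (1 unadjusted).

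Of 14 measured genes on the list of p53 and its targets, 2 were called higher with Hif-1α and 0 lower, against 5.73% and 3.77% of all genes. They were bbc3 at 1.37 ± 0.25 (adjusted p = 0.0189) and sesn3 at 1.87 ± 0.42 (adjusted p = 0.0323). Whether p53 drives the listed genes in these embryos was not tested. With normexp and the 75th percentile 0 of the 14 were called (2 unadjusted), with a median of 0.26. The product of bbc3 promotes cell death, and that of sesn3 is known to restrain mTOR. For mdm2, whose product the 5S particle binds, the difference was 0.71 ± 0.22 (adjusted p = 0.0833). With Hif-3α 0 genes were called by limma among the initiation factors, the elongation factors and the p53 genes, where 1, 0 and 3 had an unadjusted p under 0.05.

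Messages known to be left from the egg also differed between the groups. Of 20 measured maternal and oocyte transcripts 10 were called higher and 0 lower with Hif-1α, with a median of 0.72, against 5.73% of all genes higher and 3.77% lower. With normexp and the 75th percentile 0 were called (6 unadjusted), with a median of 0.30, and with normexp and quantile normalization 10, with a median of 0.36. The mean of the 20 genes relative to their own means was -0.37, -0.39 and -0.63 in the GFP controls, 0.74, 0.34 and 0.38 with Hif-1α mRNA and 0.29, -0.25 and -0.11 with Hif-3α mRNA. The Hif-1α arrays were the high ones, without overlap with the other groups. The part of these messages in the differences of the ribosomal protein genes and of the lists above was not tested. Of the 34 embryo markers 1 was called higher and 2 lower with Hif-1α, against 5.73% and 3.77% of all genes, and 0 with Hif-3α, and the 3 groups overlapped in their mean.

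The number of calls in these lists changed with scan day as a block and with single arrays left out, and the medians kept their signs in those fits. With scan day as a block 0 genes of any of the 4 lists of biogenesis, initiation, elongation and p53 were called for Hif-1α (1, 3, 4 and 1 unadjusted), and 0 of the maternal transcripts (11 unadjusted). That fit has 3 residual degrees of freedom, and the median SE over all genes rose from 0.19 to 0.27. The medians in it were -0.19, -0.19, -0.20, 0.37 and 0.81. Of the biogenesis genes 0 were called without control replicate 1 or 3 or Hif-1α replicate 1 or 3 (18 to 22 unadjusted), 1 without Hif-1α replicate 2, Hif-3α replicate 2 or Hif-3α replicate 3, and 3 or 4 without the other arrays. Of the maternal transcripts 2 to 11 were called, fewest without control replicate 3. Of the initiation factors 0 to 2 were called higher and 0 to 4 lower, of the elongation factors 0 to 1 in each direction, and of the p53 genes 0 to 3 higher. With the replicate number as a block 1 biogenesis gene was called higher and 12 lower, 2 and 14 initiation factors, 1 and 4 elongation factors, and 5 and 0 genes of the p53 list. In that fit 2279 of all 19547 genes tested were called higher and 2124 lower, or 22.5% in either direction.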

How the data were processed

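RNA of 9 pools of 60 embryos was labelled with Cy3 and hybridised to 1-colour Agilent arrays. Per the file headers the arrays carry a zebrafish design, although the labelling protocol in the labels names a mouse array. The deposited scanner files give the processed signal as an intensity, made with Feature Extraction 10.7.3.1, which subtracted background and detrended within each array, per the file headers. The spot flags in the deposited files are other values of 0 or 1. The authors normalized the data with GeneSpring 11.0, per the series' design text, and deposited log2 values with a median of 6.09 on each array. These values correlated above 0.998 with the log2 processed signal of the same array, so their scale and direction are settled, and their normalization method is not given in the sources used here.

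Left out were control spots and spots that the software had marked as outliers, 459 probe values in all, and replicate spots were averaged. The log2 processed signal minus the 75th percentile of the array was used, for probes that in 1 group or more stood well above background on each of its 3 arrays. The brightest probe stood for a gene, which gave 19547 genes, 10642 with a symbol. RefSeq identifiers were matched to symbols in the RefSeq table of assembly GRCz12tu, for names alone. Of 43603 probes 25069 matched. The fit was limma 3.58.1 in R 4.3.3, with lmFit and eBayes, 1 mean per group over all 9 arrays, two-sided, with Benjamini-Hochberg adjustment and a threshold of 0.05. It was tested on simulated data. Figures were drawn with matplotlib 3.10.9. With 3 arrays a group, that number sets the precision.

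The ribosomal protein genes and the lists were chosen with earlier results of these data known. Genes were named by a rule. It took each ribosomal protein gene that passed, the 4 largest and 4 smallest differences of a comparison, the 3 largest and 3 smallest SDs, genes of stated roles and paralogue pairs, and up to 3 passing genes of each list. Some of these stand in counts alone or are not reported here, and rpl3, rack1 and mdm2 were named after their values were seen. The labels number the replicates of each group 1 to 3, from 3 injection experiments. Over all genes the deviations of same-numbered arrays from the group means correlated at 0.11 to 0.58 for all 9 such pairs. Other pairs had -0.49 to 0.07. Deviations cancel out over the arrays of a group, so the low values of the other pairs are not separate support. The replicate 2 arrays also shared scan day 3. The number was taken as a pairing. The planned fit without the number was kept, and blocked values are given where they change a call. The paralogue tests do not use the number. The planned count of pyrimidine starts in promoters was not run, since no promoter table was used here. Alternatives covered the scaling, background correction, filter, probe choice, groups in the fit, replicate block, scan day and each array left out. Slide as a random block and outlier spots kept, and the settings of the lists, were added after seeing the data.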

Additional observations from a re-analysis of the deposited data

How the results depend on the processing

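For Hif-1α against control, 1858 genes and 1 ribosomal protein gene were called, with a ribosomal protein median of 0.03. Scaling by the array median called 2 of the ribosomal protein genes, with a median of -0.075 and a split over all genes of 883 higher and 1312 lower, against 1121 and 737. Quantile normalization called 2 (median -0.095), normexp with quantile normalization 2 (median -0.093) and the authors' values 2 (median -0.11). Normexp with the 75th percentile called 5 genes and 0 ribosomal protein genes (1 at an unadjusted p under 0.05), with a median of 0.24. Its median SE over all genes was 0.34, against 0.19 in the main fit. Relative to their own means, the ribosomal protein genes then had a mean of -0.53 on control replicate 3. On Hif-3α replicate 1 that mean was -0.59. Without a filter on dim probes 705 genes and 0 ribosomal protein genes (7 unadjusted) were called, and with probes well above background on all 9 arrays 2 ribosomal protein genes. With the mean of the probes of a gene 2 were called (median -0.046). With only the 2 groups compared 693 genes and 0 ribosomal protein genes (5 unadjusted) were called. Without rpl22l1 and rpl7l1 the count was 0 of 75.

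With the replicate number as a block 4403 genes and 3 ribosomal protein genes were called, rpl22l1, rpl5a and rps8b, and 890 genes for Hif-3α against Hif-1α, in place of 181. The pairing changed no other call of a ribosomal protein gene. With scan day as a block 4 genes, and within the third scan day 0 genes (2261 unadjusted), were called for Hif-1α, with 0 ribosomal protein genes (0 unadjusted) and a median of -0.065 in both. These fits have 3 and 2 residual degrees of freedom, and the median SE rose from 0.19 to 0.27 and 0.25. For Hif-3α against control 1 gene was called. The count was 0 with normexp under both scalings, without the filter, with the filter on 9 arrays, with scan day as a block, within the third scan day and with only the groups compared (55 to 1301 unadjusted). It was 2 with the authors' values and 6 with the mean of the probes. For Hif-3α against Hif-1α the count was 6 with normexp and the 75th percentile, 368 with normexp and quantile normalization, 81 without the filter and 0 with scan day as a block (1175 unadjusted) or within the third scan day (1267). The ribosomal protein median there was 0.079 with quantile normalization, -0.22 with normexp and the 75th percentile, 0.075 with normexp and quantile normalization and 0.058 with the authors' values. The causes were not tested.

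With each array left out in turn, 374 (without control replicate 3) to 2061 genes were called for Hif-1α, 0 to 14 for Hif-3α against control and 56 to 281 for Hif-3α against Hif-1α. For Hif-1α the count moved by over 1.5 times without replicate 1 of the controls (527), replicate 1, 2 or 3 of the arrays with Hif-1α mRNA (395, 982 and 500) and replicate 3 of those with Hif-3α mRNA (1131). For Hif-3α against control it was 14 without control replicate 2, 8 without Hif-3α replicate 2, and 0 without either other control array, Hif-1α replicate 2 or Hif-3α replicate 3 (968 to 1264 unadjusted). Between the HIF groups it was 281 without control replicate 2 and 56 to 96 without any 1 HIF array. The ribosomal protein genes called were 0 to 1 for Hif-1α. Their medians ran from -0.03 to 0.08, -0.01 to 0.07 and -0.05 to 0.04 in the 3 comparisons. Slide as a random block and outlier spots kept changed no call of a ribosomal protein gene.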
